A study of Mus musculus with 36 samples.

Results

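Aminoacyl-tRNA synthetases are the enzymes that load each amino acid onto its transfer RNA before translation. The set described here was a fixed list of 39 genes matched by Ensembl identifier, out of 49671 genes counted and 23501 tested: 20 genes for enzymes of the cytosol, 16 for enzymes of the mitochondrion, and 3 (Gatb, Gatc and Qrsl1) for the subunits of the mitochondrial glutamyl-tRNA amidotransferase. All 39 passed the filter on low counts. Symbols follow the older style, so Aars stands for the gene now called Aars1.

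The libraries were single-end RNA-seq of mouse stem cells, 36 in all, from 3 lines named for the gene removed: Bod1L, Setd1a and Mll2 (the gene Kmt2b). BOD1L is a subunit of the complex around the histone H3 lysine 4 methyltransferase SETD1A, and MLL2 is the catalytic subunit of a related complex. Each line had cells labelled knockout, with tamoxifen in the title, and cells labelled wild type, in 3 media: 2i (LIF with the inhibitors PD0325901 and CT99021, naive embryonic stem cells), FCS (LIF and fetal calf serum, embryonic stem cells called cycling), and Activin A with FGF2 (epiblast-like stem cells, EpiSC). That made 18 groups of 2 replicates. The labels name tamoxifen for knockout cells alone, so drug and genotype cannot be told apart. They give neither the recombinase, nor the exons removed, nor whether a line is 1 clone, nor that replicates came from separate cultures beyond the words biological replicate. P-values therefore measure the spread between these libraries, which may be partly technical.

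The cytosolic and mitochondrial enzymes serve separate ribosomes. The mitochondrial enzymes are encoded in the nucleus and imported, and they charge the transfer RNAs that the mitochondrial genome encodes for the translation of respiratory chain subunits. Gars and Kars give both forms from the same gene, and glutaminyl-tRNA of the mitochondrion is made indirectly: Ears2 puts glutamate on the transfer RNA for glutamine, and the amidotransferase of Gatb, Gatc and Qrsl1 then converts it.

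Library depth ran from 24.5 to 40.6 M counts (median 32.6 M). Bod1l itself fell in the Bod1L knockout (48.3 ± 11.6 CPM, counts per M counts of the library, against 225 ± 66.4, SD, n = 6 each, no overlap; log2 fold change -2.21, edgeR adjusted p = 1.83e-09). Counts over the whole gene gave no such check for the other lines: Setd1a was at 39.6 ± 2.47 against 51.7 ± 6.37 CPM in its line (-0.38, edgeR adjusted p = 0.0957) and Kmt2b at 129 ± 12.8 against 157 ± 40.9 CPM in the Mll2 line (-0.28, edgeR adjusted p = 0.744). All 12 EpiSC libraries and Setd1a knockout 2i replicate 1 belong to a later series of library numbers, so medium and library series cannot be told apart for EpiSC. Summed CPM of 10 naive markers was 2647 to 3855 in the 6 wild-type 2i libraries and 24.9 to 80.3 in wild-type EpiSC of the Bod1L and Mll2 lines, but 379 to 569 in those of the Setd1a line. In bulk RNA, fewer cells of a type and less RNA per cell cannot be told apart.

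Promoter sequences were matched for 29 of the 39 genes in a RefSeq table on GRCm38.p6, as windows of 300 bases from 250 before to 50 after the start. Gatb, Pars2, Lars, Nars, Rars, Wars, Hars, Hars2, Vars and Cars had no entry. Shown first, because these genes fell furthest in the knockouts among those with an entry, are the promoters of Ears2 (chr7:122067037-122067336, minus strand), Iars2 (chr1:185329352-185329651, minus strand), Dars (chr1:128417367-128417666, minus strand) and Rars2 (chr4:34614707-34615006, plus strand). Each is written 5′ to 3′ on the strand of the gene. Capitals mark the E-box CACGTG in Ears2, a match of the NRF1 motif (GCGCA and GCGC with any 1 base between) on the opposite strand in Iars2, and a match of the ETS motif CCGGAAG on the opposite strand in Rars2. Dars holds none of the 5 motifs searched.
Ears2: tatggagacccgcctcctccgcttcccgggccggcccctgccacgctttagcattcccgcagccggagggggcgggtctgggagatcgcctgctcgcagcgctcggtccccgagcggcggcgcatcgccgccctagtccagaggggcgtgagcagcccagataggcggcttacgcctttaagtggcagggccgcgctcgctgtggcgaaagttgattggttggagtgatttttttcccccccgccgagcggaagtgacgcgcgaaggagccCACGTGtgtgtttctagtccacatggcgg
Iars2: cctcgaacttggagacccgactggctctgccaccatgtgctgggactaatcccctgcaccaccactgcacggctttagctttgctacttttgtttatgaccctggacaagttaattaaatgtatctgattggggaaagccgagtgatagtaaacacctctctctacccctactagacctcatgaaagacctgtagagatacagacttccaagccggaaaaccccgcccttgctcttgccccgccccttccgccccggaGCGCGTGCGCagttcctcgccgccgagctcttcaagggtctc
Dars: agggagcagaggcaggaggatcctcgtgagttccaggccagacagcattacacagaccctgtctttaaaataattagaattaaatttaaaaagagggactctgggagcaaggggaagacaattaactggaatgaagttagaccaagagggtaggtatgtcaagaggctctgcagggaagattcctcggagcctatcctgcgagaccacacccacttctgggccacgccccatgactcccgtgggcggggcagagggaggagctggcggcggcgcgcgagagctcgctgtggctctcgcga
Rars2: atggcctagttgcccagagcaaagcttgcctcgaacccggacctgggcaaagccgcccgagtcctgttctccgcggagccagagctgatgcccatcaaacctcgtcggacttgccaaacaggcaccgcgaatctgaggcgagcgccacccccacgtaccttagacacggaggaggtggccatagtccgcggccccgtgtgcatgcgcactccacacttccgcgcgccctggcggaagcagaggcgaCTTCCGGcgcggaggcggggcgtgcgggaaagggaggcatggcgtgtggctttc

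The 5 motifs were searched on both strands, as letters only. Of the 29 promoters, 9 held the ETS motif CCGGAAG (8.86% of 32851 promoters in the same table), 5 the NRF1 motif (4.60%), 5 the E-box CACGTG (7.15%) and 4 the YY1 motif AAGATGGC (2.75%). The ATF4 response element is TGATGNAA, through which amino acid shortage is known to raise synthetase genes. It was in 5 of 13 cytosolic promoters and 0 of 16 mitochondrial and amidotransferase promoters, against 3.97% of all. The 16 took in Gatc and Qrsl1 but not Pars2, Hars2 or Gatb, which had no entry. A match is a description and not a binding site. The 30-base windows around it in 4 of these promoters, with the element in capitals, are shown because only cytosolic promoters among the 29 held it. Among these 4 it lies on the opposite strand in all but Yars.
Gars: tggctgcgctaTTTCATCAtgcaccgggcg
Iars: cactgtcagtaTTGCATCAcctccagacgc
Tars: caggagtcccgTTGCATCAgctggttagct
Yars: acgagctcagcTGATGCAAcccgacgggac

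Their places are chr6:55037960-55037989 (Gars), chr13:49682126-49682155 (Iars), chr15:11399655-11399684 (Tars, minus strand) and chr4:129189895-129189924 (Yars). None of these 4 genes passed the test in the averaged knockout comparison of any of the 3 lines.

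In wild-type cells the 2 classes stood at different levels per length of gene. The cytosolic genes had a median of 53.3 RPKM (CPM per kilobase of the annotated gene model, mean of 18 wild-type libraries), from 18.9 for Farsa to 163 for Nars. The mitochondrial genes had a median of 7.27 RPKM, from 1.86 for Wars2 to 43.8 for Lars2, and the amidotransferase subunits lay at 7.54 (Gatc), 5.92 (Qrsl1) and 3.65 RPKM (Gatb). Lars2 was highest in wild-type Setd1a FCS replicate 2 (1228 CPM) and Mll2 2i replicate 2 (841 CPM). Gm42418, which overlaps ribosomal RNA, was also highest among wild-type libraries there (6434 and 4085 CPM), and its part in the Lars2 level was not tested. Without Lars2, the highest mitochondrial gene was Rars2 at 16.9 RPKM, below the lowest cytosolic mean. Even for Gatb, among the lowest, no library held fewer than 45 counts.

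**Figure D1:**
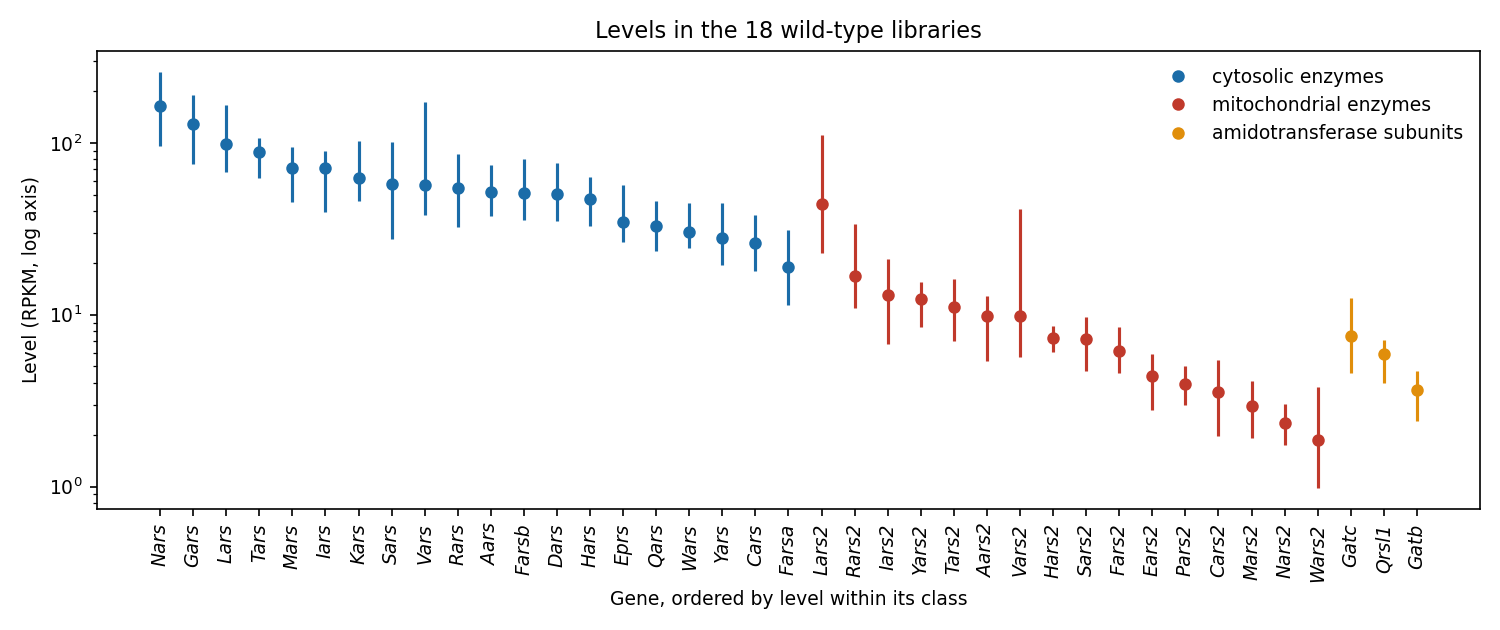
Level of each of the 39 genes in wild-type cells, in RPKM on a log axis, by class; points are means and bars the lowest to highest of 18 wild-type libraries. The mitochondrial genes other than Lars2 all have means below the lowest cytosolic mean, 18.9 RPKM (Farsa).

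In Bod1L knockout cells a small group of these genes was lower, 7 of them mitochondrial or amidotransferase and 2 cytosolic, and none was called higher. Averaged over the media, 9 of 39 were lower at an edgeR adjusted p below 0.05, and 0 were higher. Of all genes tested 1.92% were lower, and 2.87% of those with a mean of at least 5 CPM, as all 39 had. An unadjusted edgeR p below 0.05 was met by 13 of 39, against 1923 of 23501 genes. DESeq2 also called 9, against 591 of 23501 genes lower. The 9 genes called by edgeR were 6 of 16 mitochondrial genes (Ears2, Iars2, Rars2, Nars2, Tars2, Pars2), Gatb among the 3 subunits, and 2 of 20 cytosolic genes (Dars and Lars). The median log2 fold change was -0.34 over the 19 mitochondrial and amidotransferase genes and -0.13 over the 20 cytosolic genes, beside 0.05 over all genes tested.

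In Setd1a knockout cells the same 9 genes and 5 more were lower. Here 14 of 39 were lower, against 5.57% of all genes tested and 8.87% of those of at least 5 CPM, and 0 were higher. An unadjusted edgeR p below 0.05 was met by 19 of 39, against 5452 of 23501 genes. DESeq2 also called 14, against 1481 of 23501 genes lower. All 9 genes lower in the Bod1L knockout were among the 14, which is 9 of 9 of the first list and 9 of 14 of the second. The same overlap over all genes is not given here, so it is not shown to be particular to this set. Of all genes tested, 0.00426% differed between the 2 knockout effects. The 2 lines have their own wild-type libraries, so no control is shared. The 5 others were Sars2, Fars2, Farsb, Vars and Mars, which makes 8 of 16 mitochondrial, 1 of 3 amidotransferase and 5 of 20 cytosolic genes. The median was -0.70 over the 19 mitochondrial and amidotransferase genes and -0.07 over the cytosolic ones, beside 0.07 over all genes tested.

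Other measures of the libraries moved with the Setd1a knockout. Mitochondrially encoded transcripts took 3.89% to 7.71% of counts in its 6 libraries and 1.98% to 5.09% in wild-type ones. The knockout was higher in 5 of 6 replicate pairs, taken by replicate number within a medium, as the labels state no pairing. In the Bod1L line the share was also higher in 5 of 6 pairs (2.46% to 5.60% against 2.41% to 4.31%), and in the Mll2 line in 3 of 6. Summed CPM of 8 primitive endoderm markers was higher in 6 of 6 Setd1a pairs (58.8 to 238 against 31.0 to 126; Foxa2 below 1 CPM throughout), as was that of 8 fibroblast markers (40.1 to 4022 against 13.7 to 1099) and of the 10 naive markers (390.5 to 2795 against 379 to 2752). Summed CPM of 8 primed pluripotency markers was lower in 6 of 6 Setd1a pairs (153 to 546 against 205 to 1631). In the Bod1L line these 4 lists were higher in 3, 3, 3 and 2 of 6 pairs, and in the Mll2 line in 2, 4, 0 and 5. Of the fibroblast markers, Dcn and Lum were below 1 CPM throughout the Mll2 line. Lists of 6 pluripotency, 6 neural and 6 trophoblast markers were higher in 1, 1 and 3 of 6 Setd1a pairs. They were higher in 4, 4 and 2 Bod1L pairs and in 2, 4 and 3 Mll2 pairs (Elf5 below 1 CPM throughout both lines). The part of these measures in the lower synthetase levels was not tested.

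In Mll2 knockout cells 0 of 39 were called, against 0.634% of all genes lower (0.751% of those of at least 5 CPM). An unadjusted edgeR p below 0.05 was met by 0 of 39, against 1980 of 23501 genes. DESeq2 called 0 of 39, against 389 of 23501 genes. Values ran from -0.24 (Fars2) to 0.29 (Mars2), with a median of 0.04.

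**Figure D2:**
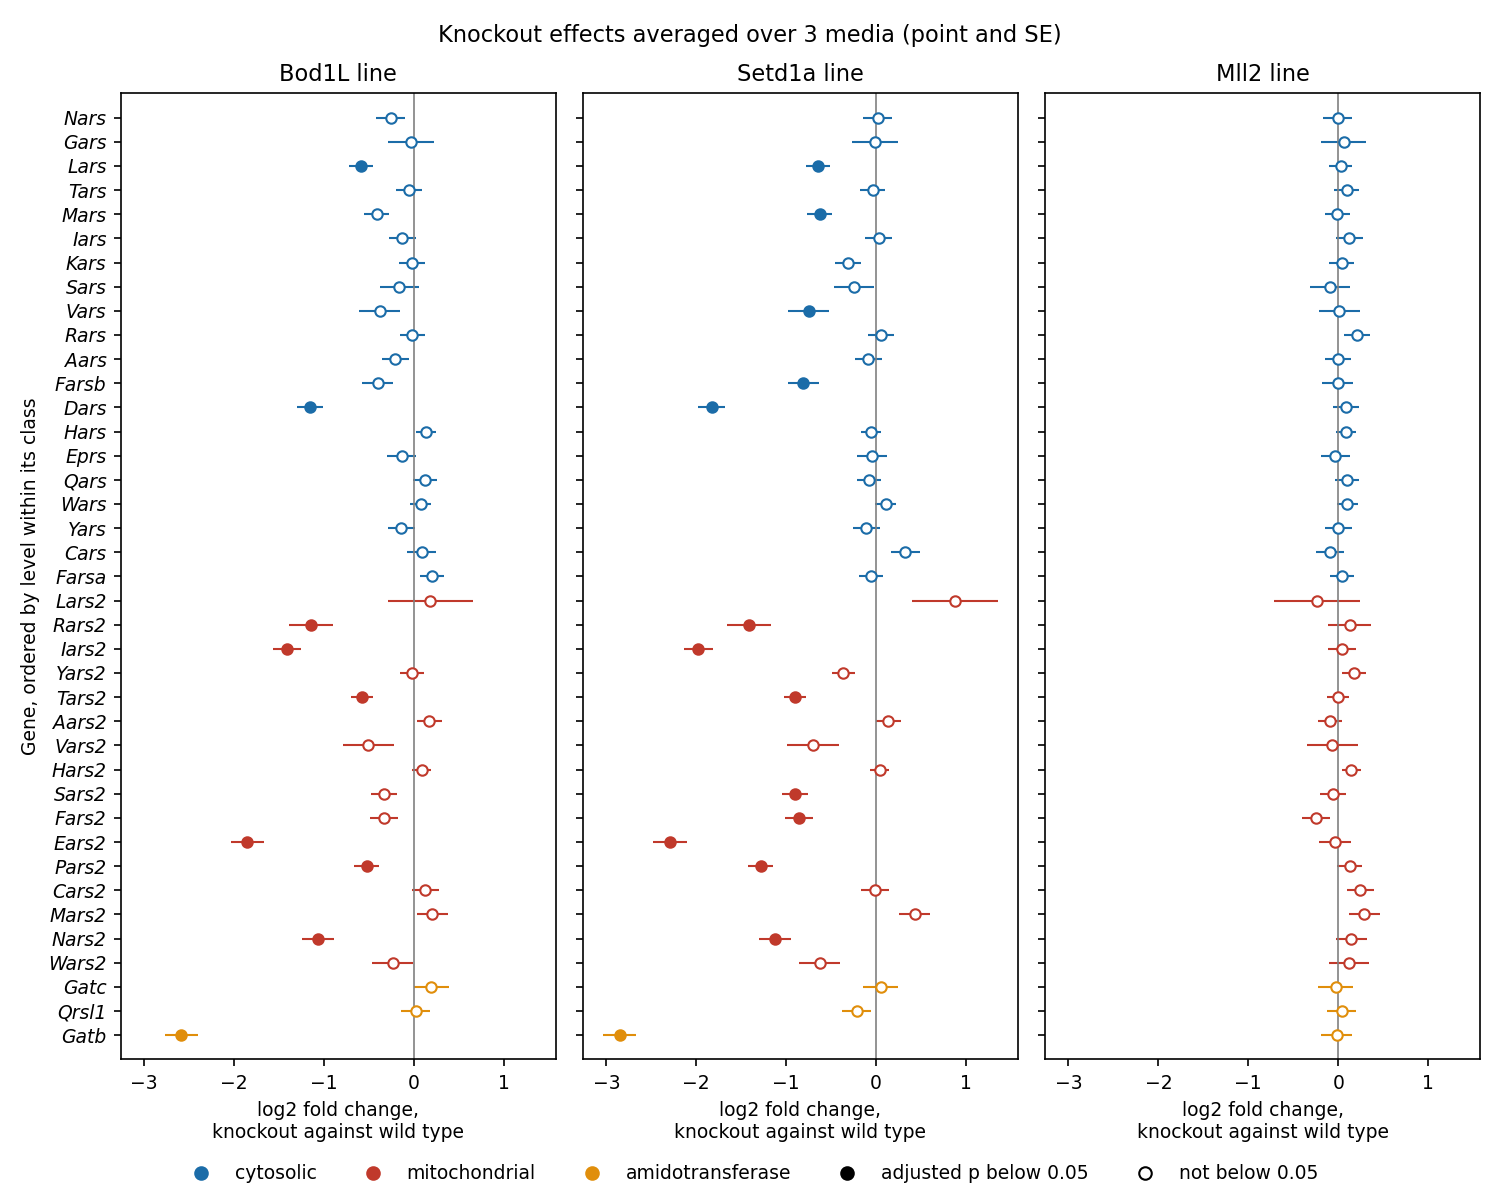
Knockout minus wild type, as edgeR log2 fold change averaged over the 3 media with its SE, for 39 genes in the 3 lines; filled points passed an adjusted p below 0.05. Gatb, Ears2, Iars2 and Dars lie furthest below 0 in both the Bod1L and the Setd1a line, and no point of the Mll2 line is filled.

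Gatb, the subunit that holds the transfer RNA in the amidotransferase, fell most. The gene lies on chromosome 3 (85574119 to 85655622, plus strand). In wild-type Bod1L cells its replicates were at 18.5 and 15.8 CPM in 2i medium, 15.5 and 19.1 in FCS, and 16.7 and 18.9 in EpiSC. In Bod1L knockout cells they were at 3.36 and 2.76, 2.52 and 3.36, and 3.52 and 1.82 CPM in the same order. Every knockout library lay below every wild-type library of the line, and the groups did not overlap (log2 fold change -2.59, SE 0.18, edgeR adjusted p = 4.73e-09).

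Gatb was as low in the Setd1a knockout. Setd1a wild-type cells held 14.8 and 15.1 CPM in the 2i medium, 10.4 and 15.0 in FCS, then 12.2 and 18.1 in EpiSC. The knockout cells held 2.38 and 1.86, 1.67 and 1.71, and 1.96 and 2.28 CPM. The groups did not overlap (-2.85, SE 0.19, edgeR adjusted p = 8.02e-10). In the Mll2 line Gatb was at 11.7 to 21.7 CPM in knockout and 12.2 to 20.1 CPM in wild-type cells, so the groups overlapped throughout (-0.02, SE 0.17, edgeR adjusted p = 1.00).

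The partners of Gatb did not pass the test. Gatc, the small subunit, had log2 fold changes of 0.19 and 0.05 in the Bod1L and Setd1a knockouts, and Qrsl1, the catalytic subunit, had 0.02 and -0.22, none past the test. Qrsl1 was at 17.1 to 26.9 CPM in Bod1L knockout and 15.5 to 26.9 CPM in wild-type cells. Of the 3 subunits of the enzyme, 1 was called in both lines.

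Ears2, the glutamyl-tRNA synthetase that supplies the amidotransferase (chromosome 7, 122037213 to 122067263, minus strand), followed. Bod1L wild-type cells held 24.8 and 20.1 CPM in the 2i medium, 22.5 and 24.0 in FCS, then 21.3 and 22.8 in EpiSC, and knockout cells 6.75 and 3.92, 7.30 and 10.5, and 5.82 and 4.43. Setd1a wild-type cells held 25.8 and 24.0, 25.0 and 27.0, and 19.7 and 26.1 CPM, and knockout cells 6.24 and 5.13, 6.91 and 4.70, and 4.19 and 3.45. In neither line did knockout and wild type overlap, with log2 fold changes of -1.85 (SE 0.18, edgeR adjusted p = 1.27e-06) and -2.29 (SE 0.19, edgeR adjusted p = 1.78e-08).

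Iars2, the mitochondrial isoleucyl-tRNA synthetase, lies on chromosome 1 (185284726 to 185329396, minus strand). It was at 86.9 to 168 CPM in the 6 Bod1L wild-type libraries and at 66.4 and 38.3 CPM in knockout 2i cells, 41.7 and 46.1 in FCS, then 35.6 and 43.2 in EpiSC. In the Setd1a line wild-type cells held 79.0 to 121 CPM, and knockout cells 19.8 and 17.2, 27.1 and 22.3, and 31.5 and 30.9 CPM. The groups were apart in both lines, and the log2 fold changes were -1.41 (SE 0.16, edgeR adjusted p = 5.09e-06) and -1.98 (SE 0.16, edgeR adjusted p = 1.78e-08).

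Dars, the aspartyl-tRNA synthetase of the cytosol and a member of the multisynthetase complex, was the cytosolic gene that fell most in both lines. It lies on chromosome 1 (128363707 to 128417368, minus strand). Bod1L wild-type cells held 257 and 263 CPM in the 2i medium, 184 and 200 in FCS, then 154 and 160 in EpiSC, and knockout cells 125 and 120, 70.0 and 86.9, and 86.9 and 60.7. The knockout libraries stayed below all wild-type ones, at 45.1% of their mean (-1.16, SE 0.15, edgeR adjusted p = 2.80e-05). Setd1a wild-type cells held 188 to 233 CPM and knockout cells 63.6 and 63.9, 52.1 and 75.4, and 39.9 and 60.9 CPM, or 28.2% of the mean (-1.83, SE 0.15, edgeR adjusted p = 2.06e-08). The other cytosolic genes kept more: in the Setd1a knockout Farsb, a chain of phenylalanyl-tRNA synthetase, was at 57.8% of wild type and Lars, the leucyl enzyme, at 65.3%.

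**Figure D3:**
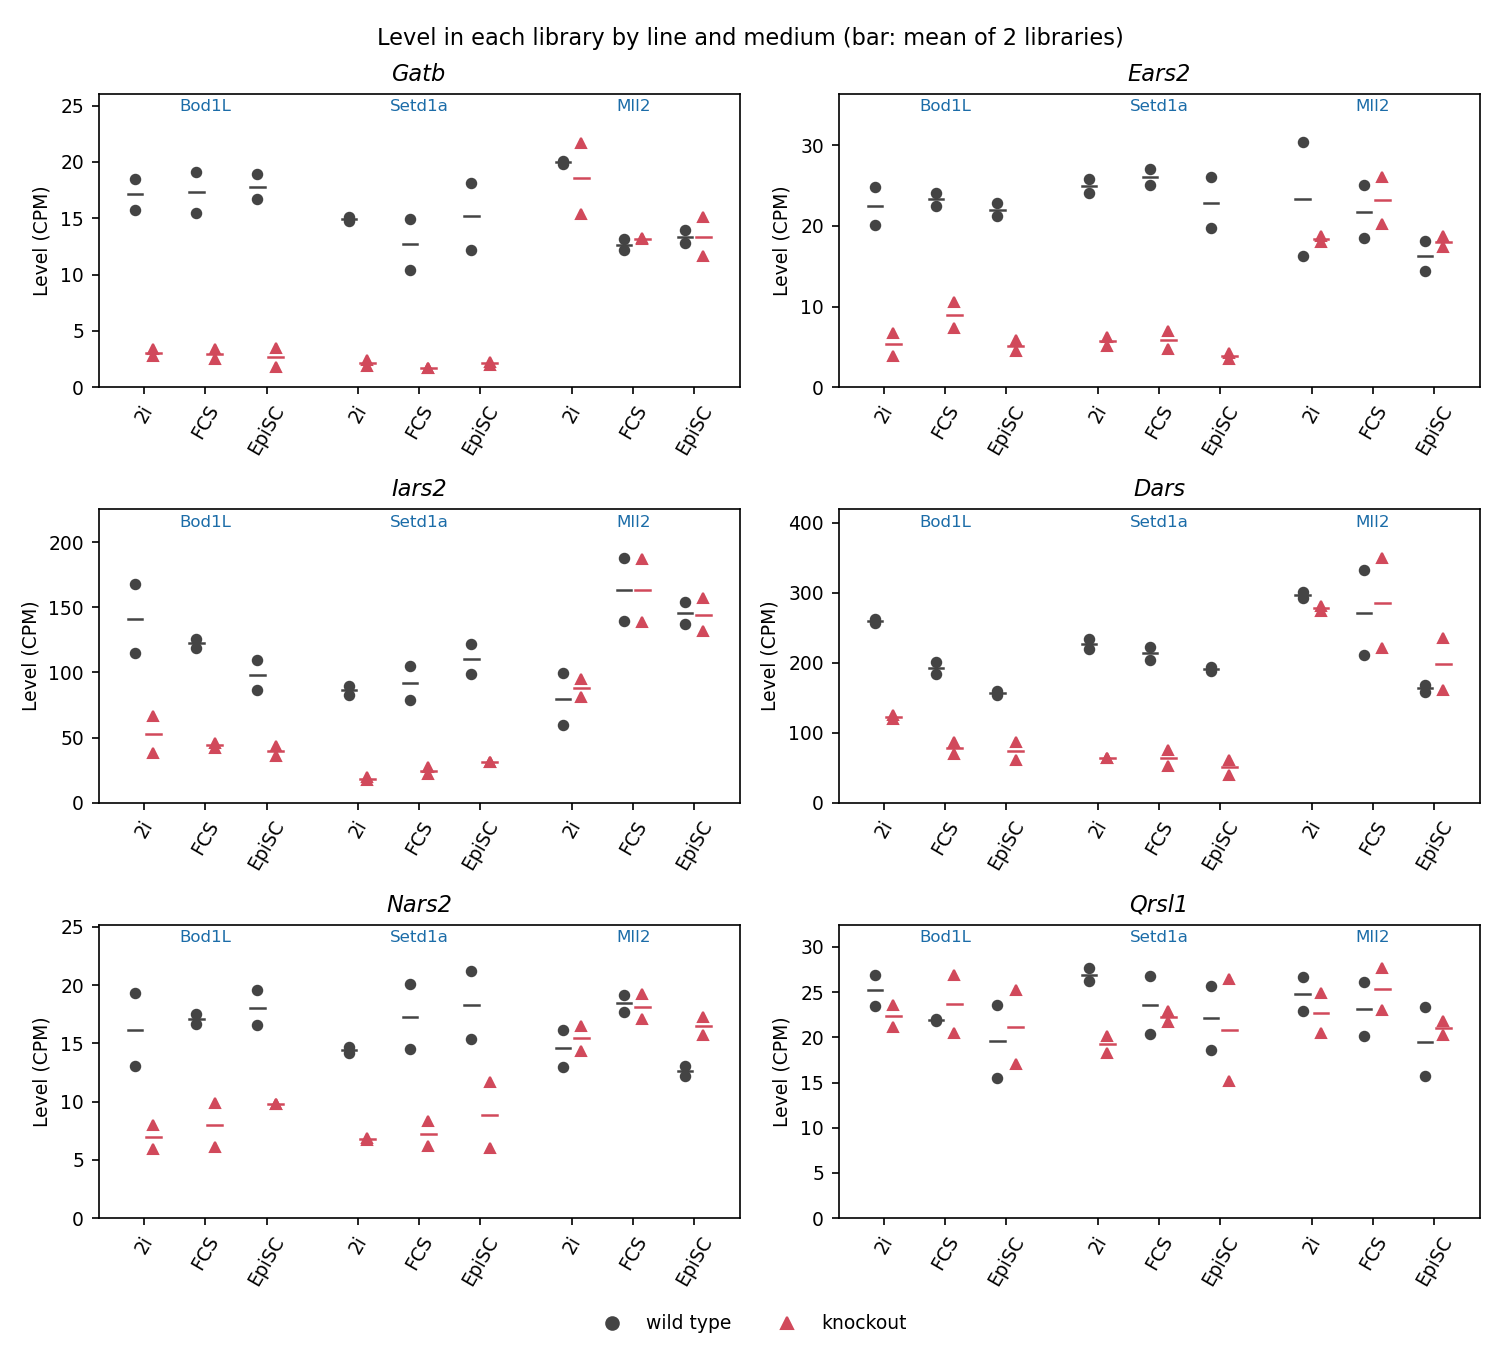
CPM in each of the 36 libraries for Gatb, Ears2, Iars2, Dars, Nars2 and Qrsl1, by line, medium and genotype; bars mark the mean of the 2 replicates. Knockout libraries of the Bod1L and Setd1a lines lie below the wild-type libraries for all but Qrsl1, and the Mll2 libraries overlap over the 3 media.

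Nars2, for mitochondrial asparaginyl-tRNA, was at 13.0 to 19.6 CPM in Bod1L wild-type cells and 7.99 and 5.91, 6.07 and 9.88, and 9.77 and 9.77 CPM in knockout cells of 2i, FCS and EpiSC. In the Setd1a line it was at 14.2 to 21.2 CPM in wild-type cells and 6.90 and 6.74, 6.22 and 8.31, and 6.03 and 11.7 CPM in knockout cells. Neither line showed overlap (-1.07, SE 0.18, edgeR adjusted p = 0.000617, and -1.13, SE 0.18, edgeR adjusted p = 0.000159).

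Rars2, the mitochondrial arginyl enzyme, was at 36.4 to 54.0 CPM in Bod1L wild-type cells and 22.0 and 15.8, 17.3 and 28.6, and 22.5 and 17.5 CPM in knockout cells (-1.15, SE 0.25, edgeR adjusted p = 0.00797). Without Bod1L knockout 2i replicate 2 the adjusted p was 0.0527. In Setd1a wild-type cells it was at 48.8 and 34.0 CPM in the 2i medium, 93.7 and 34.6 in FCS, then 93.9 and 38.4 in EpiSC, and in knockout cells at 15.4 and 13.8, 35.2 and 17.2, and 30.1 and 18.1 CPM. Replicate 1 was above replicate 2 in FCS and EpiSC in both genotypes, and the highest knockout library, FCS replicate 1, reached just above the lowest wild-type library (-1.42, SE 0.25, edgeR adjusted p = 0.000489).

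The high Rars2 libraries shared their level with the genes around it. In Setd1a replicate 1 of FCS and EpiSC, 179 genes of at least 5 CPM from Map3k7 to Tnc on chromosome 4 (31964097 to 64047015, 32.1 Mb) had median log2 differences from the other lines and replicates of the medium of 1.17 (wild-type FCS), 1.07 (knockout FCS), 1.10 (wild-type EpiSC) and 0.96 (knockout EpiSC). The 40 flanking genes were at 0.02 to 0.28, and the other 20 libraries of these media had segment medians of -0.27 to -0.03. The segment was drawn outward from Rars2 while a running median of 9 genes in these high libraries stayed above 0.5. High genes inside and lower flanks therefore follow from how it was drawn. The reference for the other 20 libraries took in the high ones, which lowers their medians. Both genotypes carried the high segment, and DNA copy number was not measured. Its part in the spread of Rars2 was not tested.

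Of the remaining mitochondrial genes, Pars2 and Tars2 were lower in both lines. Pars2, the prolyl enzyme, was at 4.43 to 5.43 CPM in Setd1a knockout and 9.26 to 15.3 CPM in wild-type cells (-1.28, edgeR adjusted p = 1.12e-06). In the Bod1L line it was at 6.43 to 9.24 against 9.39 to 15.3 CPM (-0.53, edgeR adjusted p = 0.0430), and leaving out any 1 of 10 of the 12 Bod1L libraries, all but wild-type 2i replicate 1 and knockout FCS replicate 2, took the adjusted p to 0.0512 to 0.184. Tars2, the threonyl enzyme, was at 35.5 to 56.2 against 49.1 to 74.2 CPM in the Bod1L line, with overlap (-0.58, edgeR adjusted p = 0.00773), and at 43.1 to 49.4 against 79.6 to 94.1 CPM in the Setd1a line, with none (-0.90, edgeR adjusted p = 2.77e-05).

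Sars2 and Fars2 passed the test in the Setd1a line and not in the Bod1L line, and the difference between the lines did not pass. Sars2, for seryl-tRNA, was at 9.91 to 17.4 CPM against 18.7 to 31.8 in wild-type cells (-0.91, edgeR adjusted p = 0.000179). Fars2, the single-chain phenylalanyl enzyme, was at 6.61 to 10.1 against 11.5 to 16.8 CPM (-0.86, edgeR adjusted p = 0.000821). Neither overlapped, and in the Bod1L line both were at -0.34 and did not pass.

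Of the cytosolic genes besides Dars, Lars was lower in both lines. In the Bod1L line its wild-type replicates were at 380 and 262 CPM in the 2i medium, 433 and 407 in FCS, then 554 and 641 in EpiSC, and its knockout replicates at 203 and 178, 326 and 261, and 447 and 395. The genotypes were apart within each medium but not across media (-0.59, SE 0.13, edgeR adjusted p = 0.0128). This call was lost (adjusted p 0.0549 to 0.0948) without any 1 of wild-type 2i replicate 1, knockout 2i replicate 2, knockout FCS replicate 2 or knockout EpiSC replicate 2. In the Setd1a line Lars was at 148 to 294 against 274 to 377 CPM (-0.65, SE 0.13, edgeR adjusted p = 0.00249).

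Farsb, Mars and Vars passed the test in the Setd1a knockout and not in the Bod1L knockout, where they were at -0.40, -0.42 and -0.38 (unadjusted p = 0.0267, 0.00669 and 0.103 in edgeR). The test of the difference between these lines called none of the 3. In the Setd1a knockout Farsb was at 51.6 to 96.5 CPM against 107 to 135 in wild-type cells (-0.81, edgeR adjusted p = 0.0034). Mars, the methionyl enzyme that also charges the initiator transfer RNA, was at 112 to 202 against 185 to 324 CPM, with some overlap (-0.63, edgeR adjusted p = 0.00533). Vars, the valyl enzyme, was at 157 to 203 against 252 to 329 CPM (-0.75, SE 0.23, edgeR adjusted p = 0.0410) and lost the call without any 1 of 10 of the 12 libraries of the line, all but wild-type EpiSC replicate 1 and knockout EpiSC replicate 2 (0.0626 to 0.13). Over all 36 libraries Vars reached 963 CPM, in Bod1L wild-type EpiSC replicate 2.

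Knockout and wild-type libraries of the same replicate number were taken as pairs, which was inferred from the data and is not in the labels. A fit with the 18 pairs as a block called 11 of 39 genes in the Bod1L line, all lower (4.06% of all genes lower in that fit). It called 20 in the Setd1a line, 18 of them lower (11.7% of all genes lower). The block added Mars (-0.42, edgeR adjusted p = 0.0130) and Vars2 (-0.53, edgeR adjusted p = 0.00207) as lower in the Bod1L knockout. In the Setd1a knockout it added Vars2 (-0.68, edgeR adjusted p = 6.68e-05), Wars2 (-0.67, edgeR adjusted p = 0.00237), Yars2 (-0.36, edgeR adjusted p = 0.0101) and Kars (-0.32, edgeR adjusted p = 0.0291) as lower. It also added Mars2 (0.43, edgeR adjusted p = 0.00513) and Cars (0.33, edgeR adjusted p = 0.0279) as higher, while 14.3% of all genes were higher in that fit. Vars2 is the mitochondrial valyl enzyme, Wars2 the tryptophanyl, Yars2 the tyrosyl and Mars2 the methionyl one, and Cars loads cysteine in the cytosol.

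Within single media fewer genes passed. In the Bod1L line these were Gatb, Ears2 and Iars2 in 2i (0.366% of all genes lower), Gatb, Iars2 and Dars in FCS (0.191% of all genes lower) and Gatb, Ears2 and Iars2 in EpiSC (0.43% of all genes lower). Gatb held the call when any 1 library of the medium was left out in each of the 3 media. The others did not: in 2i, Ears2 and Iars2 were lost without wild-type replicate 1 or knockout replicate 2, leaving 1 gene. In FCS, Dars and Iars2 were lost without any 1 of the 4 libraries, also leaving 1 gene. In EpiSC, Iars2 was lost without any 1 of the 4 and Ears2 without knockout replicate 2, leaving 1 gene. With the block, 7, 6 and 8 genes passed in 2i, FCS and EpiSC, against 2.8%, 1.66% and 2.19% of all genes in either direction. In a fit of the 12 Bod1L libraries alone 0 genes passed in each medium, so that the Gatb calls were lost as well, against 0%, 0.00933% and 0% of all genes.

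In the Setd1a line, Gatb, Ears2, Iars2, Dars, Pars2, Farsb and Lars were lower in 2i (1.44% of all genes), Gatb, Ears2, Iars2, Dars and Tars2 in FCS (0.74%), and Gatb, Ears2, Iars2, Dars, Pars2 and Tars2 in EpiSC (1.4%). With the block, 17, 10 and 15 genes passed, against 12.4%, 3.91% and 11.9% of all genes in either direction. In the 12 Setd1a libraries alone 5, 5 and 6 genes passed, against 1.24%, 0.432% and 1.24% of all genes. In 2i, Farsb and Lars were lost without any 1 of the 4 libraries and Pars2 without knockout replicate 2. In FCS, Tars2 was lost without any 1 library, Dars without knockout replicate 1 (adjusted p 0.0781), and Iars2 (0.0559) and Ears2 (0.0589) without knockout replicate 2, which left 2 genes. In EpiSC, Tars2 was lost without any 1 library but wild-type replicate 1. Whether a knockout effect depended on the medium was tested for each line, and 0 of 39 genes were called in each. Of all genes, 0% (Bod1L), 0% (Setd1a) and 0.00426% (Mll2) were called. An unadjusted edgeR p below 0.05 was met by 0, 1 and 0 of 39, against 244, 471 and 798 of 23501 genes. DESeq2 called 0 of 39 in each, against 0, 1 and 24 of 23501 genes.

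Lars2, the mitochondrial leucyl enzyme, was the single gene called higher within a medium, in the Setd1a knockout in 2i (3.72, SE 0.92, edgeR adjusted p = 0.0347; 0.251% of all genes were higher). Its replicates there were at 269 and 10158 CPM, against 461 and 331 CPM in wild-type cells, so 1 library made the difference. The other 35 libraries ran from 220 to 1228 CPM. Without Setd1a knockout 2i replicate 2 the value was -0.52, and with the block it did not pass (2.08, adjusted p = 0.209). Leaving out wild-type 2i replicate 1 or 2 also ended the call. Over the 4 single leave-outs in this medium the values ran up to 4.70. In the same library Gm42418, which overlaps ribosomal RNA, was at 28376 CPM (others 686 to 6434) and mt-Rnr2, the large mitochondrial ribosomal RNA, at 14898 CPM (others 449 to 10511). Their part in the Lars2 value was not tested.

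The classes were then set against each other in each library, as the mean over genes of log2(CPM + 0.5), centred on each gene's mean over the 36 libraries. The mitochondrial score took in the amidotransferase. From wild type to knockout, the mitochondrial score changed by -0.50 in the Bod1L line and -0.73 in the Setd1a line, and the cytosolic score by -0.17 and -0.26. The difference between the 2 scores changed by -0.32 with Bod1L, -0.46 with Setd1a and 0.00 with Mll2 knockout. Left-out libraries moved these to between -0.38 and -0.27, and between -0.54 and -0.39.

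By medium, the difference changed by -0.30 in 2i, -0.34 in FCS and -0.33 in EpiSC for the Bod1L line, and by -0.27, -0.66 and -0.46 for the Setd1a line. Without Lars2 the Setd1a values were -0.42, -0.65 and -0.50. In that version the mitochondrial score of the 6 Setd1a knockout libraries ran from -0.67 to -0.51 and of the 6 Bod1L knockout libraries from -0.44 to -0.11. All 18 wild-type libraries and the 6 Mll2 knockout libraries lay between 0.05 and 0.44, above all 12. The cytosolic scores overlapped between genotypes in part, in unpaired ranges. In the Bod1L line they ran from -0.30 to 0.20 in knockout and from -0.12 to 0.38 in wild-type cells. In the Setd1a line they ran from -0.58 to 0.01 in knockout and from -0.19 to 0.16 in wild-type cells. Within replicate pairs the cytosolic score was lower in the knockout in 4 of 6 Bod1L, 6 of 6 Setd1a (by -0.48 to -0.07) and 2 of 6 Mll2 pairs, and the mitochondrial score in 6, 6 and 2 of 6. The genes the score rests on were known to fall, so the score describes them and adds no test.

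**Figure D4:**
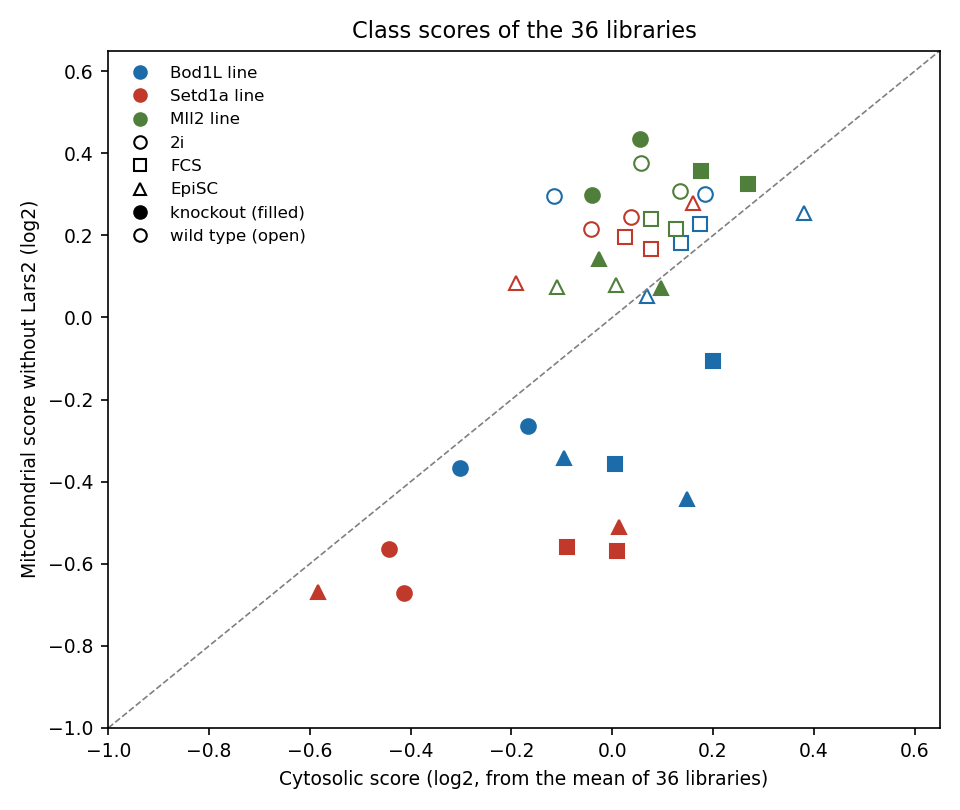
Cytosolic score (x) against mitochondrial score with the amidotransferase and without Lars2 (y) in 36 libraries, both as mean centred log2(CPM + 0.5); the dashed line marks equal scores. The 12 knockout libraries of the Bod1L and Setd1a lines lie below the other 24 on the mitochondrial axis. They overlap them only in part on the cytosolic axis.

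The lines were compared by testing the difference of their knockout effects. Between Bod1L and Setd1a, 0 of 39 genes differed (0.00426% of all genes). An unadjusted edgeR p below 0.05 was met by 5 of 39, against 1204 of 23501 genes. DESeq2 called Pars2, against 30 of 23501 genes. Between Bod1L and Mll2, 5 genes differed (0.762% of all genes lower): Gatb by -2.57, Ears2 by -1.82, Iars2 by -1.46, Dars by -1.24 and Nars2 by -1.22. The block raised this to 9 by adding Rars2, Tars2, Pars2 and Lars (2.62% of all genes lower in that fit). Between Setd1a and Mll2, 9 genes differed (2% of all genes lower), and 17 with the block (6.36% of all genes lower in that fit). These comparisons share the Mll2 libraries.

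Many of these genes start close to a gene on the opposite strand, and reads were counted by strand. Ears2 and Ubfd1 start 88 bp apart with overlapping ends, and Ubfd1 was at 0.12 and -0.09 in the Bod1L and Setd1a knockouts, not called, while Ears2 fell. In 13 such pairs of starts, the synthetase gene alone was called in 4 in each of the Bod1L and Setd1a knockouts, its neighbour alone in 2, both in 0 and 2, and neither in 7 and 5. Of all genes, 1.92% and 5.57% were lower in these knockouts (2.87% and 8.87% of those of at least 5 CPM). The 4 of the Bod1L knockout took in Iars2 and Gatb, whose neighbours were at 0.812 and 0.36 CPM, so that few counts limited a call. The 4 of the Setd1a knockout took in Gatb too. They also took in Fars2 and Sars2, whose neighbours were at -0.53 and -0.69 and did not pass. The neighbour alone was called at the same 2 pairs in both knockouts. Rtn4ip1, which starts 62 bp from Qrsl1, was lower in both knockouts (-1.26, edgeR adjusted p = 0.000454, and -1.93, edgeR adjusted p = 1.03e-06), and Qrsl1 did not pass. Wdr25, 98 bp from Wars, was also lower (-0.91, edgeR adjusted p = 0.00386, and -1.12, edgeR adjusted p = 0.000221), and Wars, the cytosolic tryptophanyl enzyme, was at 0.07 and 0.11.

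Rars2 and Orc3, an origin recognition subunit, start 13 bp apart. Orc3 was at -0.57 in the Bod1L knockout (edgeR adjusted p = 0.534) and -1.34 in the Setd1a knockout (edgeR adjusted p = 0.00146), beside -1.15 and -1.42 for Rars2, and it lies in the same chromosome 4 segment. At Iars2 the neighbour Gm37785, 55 bp away and at a mean of 0.812 CPM, was at -1.30 (edgeR adjusted p = 0.125) and -1.58 (edgeR adjusted p = 0.0419). At Gatb the neighbour Gm15535, 174 bp away and at 0.36 CPM, was at -0.82 and -0.70 and did not pass. Lyrm4, 54 bp from Fars2, was at -0.23 and -0.53, and Mrps12, 172 bp from Sars2, at -0.01 and -0.69; neither passed. The 14 genes lower in the Setd1a knockout spanned a median of 44.9 kb (4.2 to 420 kb). The other 25 spanned a median of 20.3 kb (6.7 to 98.1 kb), so the ranges overlapped widely, and the difference was not tested. Promoter GC content had a median of 55.3% (48.3% to 71.7%) over 10 of the lower genes. It was 58.7% (49% to 66%) over 19 of the others, beside 52.7% over all promoters.

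Other genes of the same pathway were counted from short lists. For them too, the share of all genes lower was 1.92% in the Bod1L and 5.57% in the Setd1a knockout (2.87% and 8.87% of those of at least 5 CPM). Of 12 mitochondrial translation factors, 4 were lower in the Bod1L knockout: Mtrf1, a release factor (-1.37), Guf1 (-0.96), Mtif2, the initiation factor (-0.72), and Gfm2 (-0.64). In the Setd1a knockout 6 of 12 were lower, with Mtif2 (-1.39) and Mtrf1 (-1.35) lowest. Of 14 genes for the maturation of mitochondrial transfer RNA, 3 were lower in the Bod1L knockout, with Cdk5rap1 (-0.96) and Nsun3 (-0.79) lowest, and 4 in the Setd1a knockout, with Trmt5 (-1.47) and Nsun3 (-1.12) lowest. Cdk5rap1, Nsun3 and Trmt5 modify bases of these transfer RNAs.

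Few genes of the cytosolic lists passed. Of 8 cytosolic elongation and termination factors, 0 were called in either knockout, and of the 3 scaffold proteins of the multisynthetase complex, Aimp2 alone was lower, in the Setd1a knockout (-0.42, edgeR adjusted p = 0.0403). Of 22 ATF4 targets outside the set, 0 were called in the Bod1L knockout, and in the Setd1a knockout 0 were lower and 2 higher: Slc7a11, the cystine transporter (1.59), and Ddit3 (1.37), against 3.29% of all genes higher. In the Mll2 knockout 0 genes of these 5 lists were called, against 0.634% of all genes lower and 14 of 23501 higher.

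Wild-type levels also differed between media, by at most 0.76 on the log2 scale among the genes called. In FCS against 2i, 4 of 39 were called: Gatc (-0.61, edgeR adjusted p = 0.0219), Qars (-0.52, edgeR adjusted p = 0.00468) and Pars2 (-0.37, edgeR adjusted p = 0.0495) lower, and Rars (0.49, edgeR adjusted p = 0.0135) higher, against 14.5% of all genes lower and 13.3% higher. Qars and Rars, the cytosolic glutaminyl and arginyl enzymes, kept the call without any 1 of the 12 libraries. Gatc lost it in 7 and Pars2 in 11 of the 12, so that 2 to 5 genes were called.

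Rars showed the rise in each line. Wild-type 2i replicates were at 132 and 164 (Bod1L), 189 and 159 (Setd1a) and 163 and 152 CPM (Mll2), and FCS replicates at 266 and 218, 278 and 225, and 201 and 168 CPM. The media were apart within each line and overlapped over the lines. Qars was at 235 to 302 CPM in the 6 2i and 153 to 213 CPM in the 6 FCS libraries, with no overlap.

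In EpiSC against 2i, 10 of 39 were called, 6 lower and 4 higher, against 27.4% of all genes lower and 25.1% higher. Single leave-outs gave 6 to 11, the fewest without Setd1a wild-type 2i replicate 2. The lowest were Sars2 (-0.67, edgeR adjusted p = 0.000503), Dars (-0.61, edgeR adjusted p = 0.00134) and Cars2, the mitochondrial cysteinyl enzyme (-0.52, edgeR adjusted p = 0.00702). The highest were Vars2 (0.68, edgeR adjusted p = 0.0497), Sars (0.64, edgeR adjusted p = 0.0189) and Lars (0.45, edgeR adjusted p = 0.00637). Dars was at 219 to 300 CPM in 2i and 154 to 194 CPM in EpiSC, with no overlap. Sars2, Dars and Lars kept the call without any 1 of the 12 libraries, Cars2 lost it without Mll2 wild-type 2i replicate 2 (adjusted p 0.0533), and Sars lost it without Bod1L 2i replicate 2, Setd1a EpiSC replicate 2 or Mll2 EpiSC replicate 1.

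In EpiSC against FCS, 13 of 39 were called, 10 lower and 3 higher, against 20.6% of all genes lower and 20.4% higher. Rars (-0.66, edgeR adjusted p = 0.000911), Farsa (-0.60, edgeR adjusted p = 0.00137) and Aars2 (-0.48, edgeR adjusted p = 0.0074) were lowest and kept the call without any 1 library. Vars2 (0.76, edgeR adjusted p = 0.0376), Sars (0.59, edgeR adjusted p = 0.0363) and Cars (0.46, edgeR adjusted p = 0.0248) were highest. Each single leave-out of the 12 left 5 to 8 genes called. Beside both EpiSC comparisons, the summed CPM of 8 fibroblast markers was 85.9 to 6769 in wild-type EpiSC, 19.4 to 234 in FCS and 13.7 to 43.6 in 2i, and its part in these differences was not tested.

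The rise of Vars2 in EpiSC rested on 1 library. Bod1L wild-type EpiSC replicate 2 held 225 CPM and replicate 1 held 52.6, and without replicate 2 the values fell to 0.21 against 2i (adjusted p = 0.517) and 0.29 against FCS (adjusted p = 0.392). In knockout EpiSC of that line, too, replicate 2 held 132 CPM and replicate 1 held 27.3. Vars, on the same chromosome, was at 963 and 272 CPM in wild-type and 590 and 211 CPM in knockout replicates 2 and 1.

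Both genes lie in a stretch of chromosome 17 that was high in these libraries. From H2-Eb1 to Atat1 (34305877 to 35910075, 1.60 Mb), 51 genes had median log2 differences of 1.55 in the wild-type and 1.58 in the knockout library of Bod1L EpiSC replicate 2, with 48 and 49 of 51 above 0. The 40 flanking genes were at -0.26 and -0.47, and the other 10 EpiSC libraries had segment medians of -0.50 to -0.16. This segment too was drawn outward, from Vars and Vars2, while the running median of 9 genes in the high libraries stayed above 0.5. Its height and lower flanks therefore follow from how it was drawn, and the reference for the other 10 libraries took in the high ones. The segment also holds Pou5f1. DNA copy number was not measured, and its part in the Vars and Vars2 levels was not tested.

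Whole chromosomes also differed between replicate pairs. Of 360 pair and chromosome values, 16 in 10 of the 18 pairs were past 0.3 on the log2 scale, with the same sign in the knockout and wild-type library of each. The largest gap between the 2 genotypes of a pair over all 360 was 0.14. Chromosome 11, which holds Rars, was at 0.32 to 0.46 in 5 of the 6 Setd1a pairs, and chromosome 3, which holds Gatb, Sars, Tars2 and Wars2, was at 0.53 and 0.51 in the Mll2 2i replicate 1 pair. Chromosome 1, with Dars, Eprs, Farsb, Iars2 and Mars2, was at 0.49 and 0.51 in Mll2 FCS replicate 1, where wild-type Iars2 (188 CPM) and Dars (332 CPM) were the highest wild-type values of the line. In all, 15 of the 39 genes lie on a chromosome past 0.3 in some pair, and its part in the wild-type spread of these genes was not tested.

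**Figure D5:**
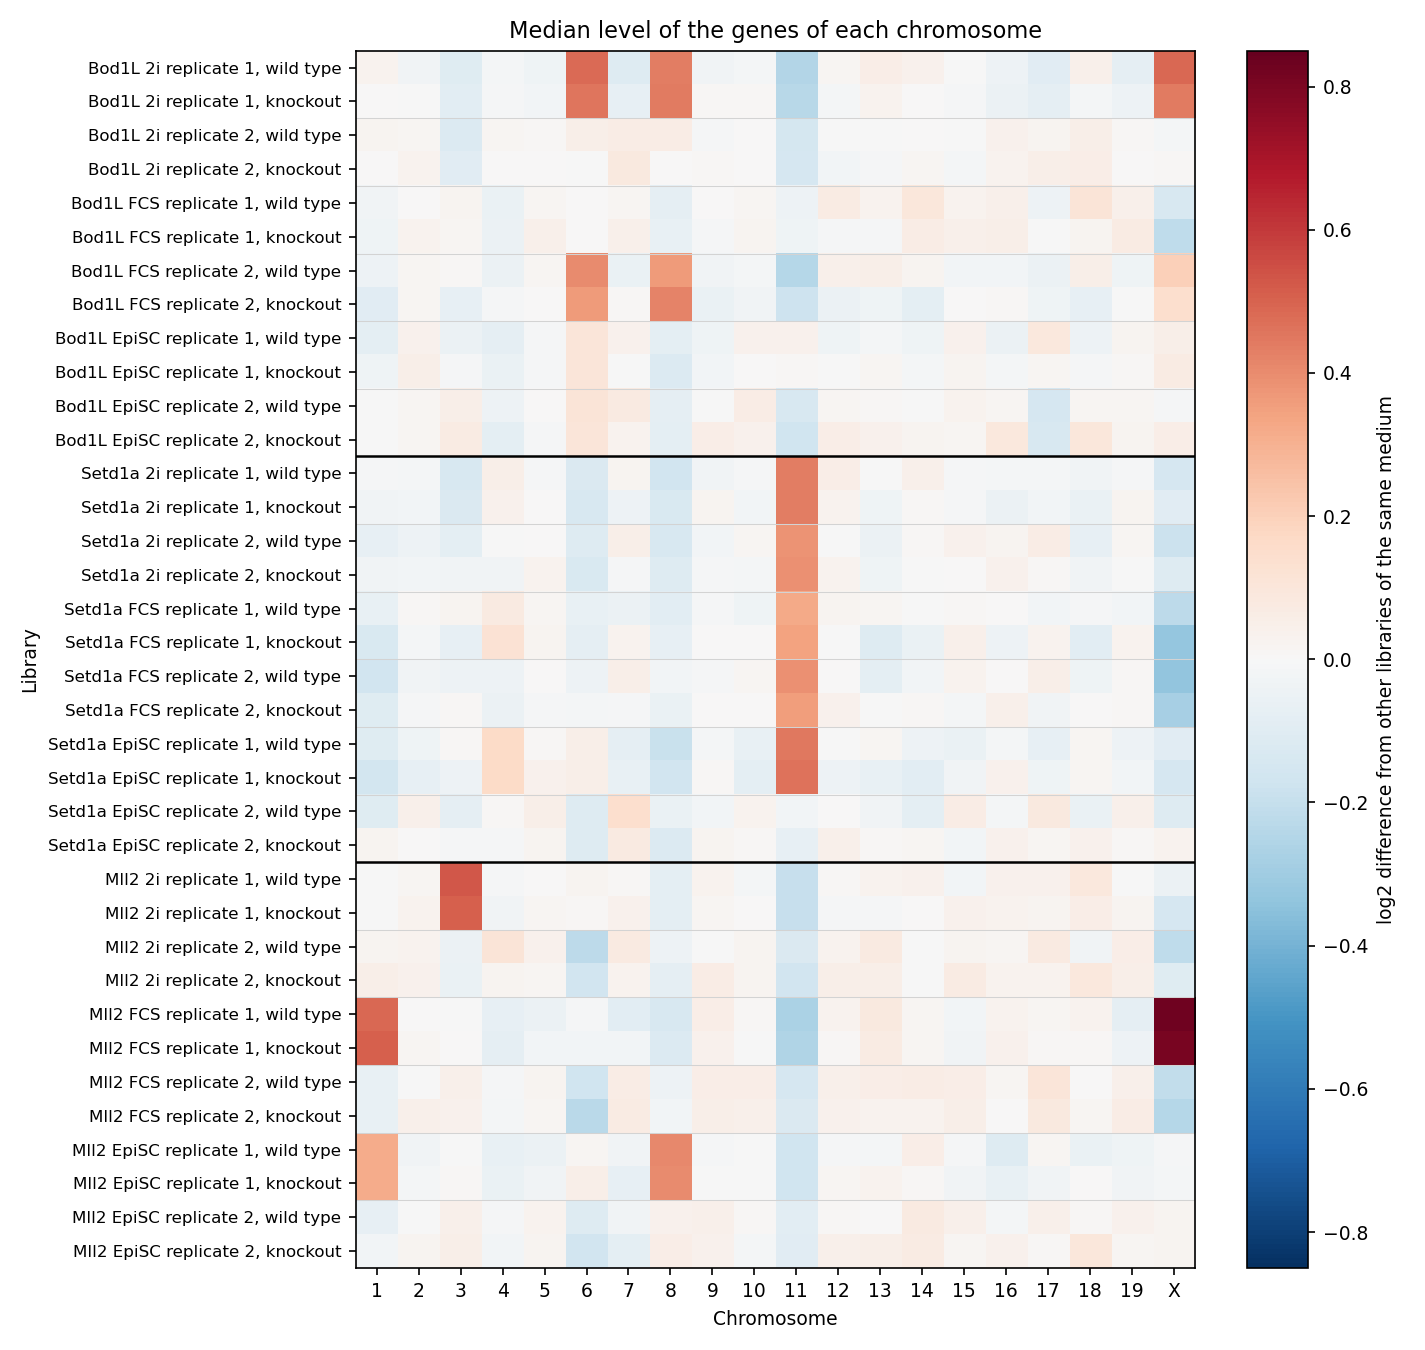
Median log2 difference of the genes of each of 20 chromosomes from other libraries of the same medium, in 36 libraries, less the library's own median. Knockout and wild-type libraries of a pair stand side by side with like colours, such as chromosome 11 in the Setd1a line and chromosome 3 in Mll2 2i replicate 1.

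Among the wild-type lines, Setd1a against Bod1L differed in 2 of 39 genes, Tars2 (0.44, edgeR adjusted p = 0.0205) and Yars (-0.48, edgeR adjusted p = 0.0343), against 7.65% of all genes higher and 4.66% lower. Tars2 lost the call in 7 and Yars in 9 of the 12 single leave-outs. Mll2 against Bod1L called 0 genes (4.65% of all genes), and Mll2 against Setd1a called 0 (6.39% of all genes). An unadjusted edgeR p below 0.05 was met by 2 and 4 of 39, against 3930 and 4918 of 23501 genes. DESeq2 called 0 of 39 in each, against 1657 and 2512 of 23501 genes.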

How the data were processed

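The authors deposited raw read counts for each gene. Per the file headers these came from featureCounts 1.5.2 in reverse-stranded mode, on primary alignments and Ensembl models. GSNAP and GRCm38 are named in the submitters' processing notes. The 92 spike-in rows held 0 counts and were removed, leaving 49671 genes, 345 of them without a symbol. CPM and RPKM were computed from the counts.

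The fit was a quasi-likelihood model of edgeR 4.0.16 with TMM factors, over 18 groups (residual degrees of freedom 18), for the 23501 genes that filterByExpr kept (minimum count 10). Adjusted p-values are Benjamini-Hochberg over all of these, called below 0.05. Averages weigh the 3 media, or lines, equally. Alternatives were DESeq2 1.42.0, other size factors, no filter, the 12 libraries of a line alone, each library left out, and a replicate block. The scripts also used the data.table package (1.17.8), with limma 3.58.1, in R 4.3.3. A simulated data set was used to test the fit.

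Replicate numbers were checked for pairing: the correlation of replicate differences between knockout and wild-type cells was 0.364 to 0.866 over the line and medium pairs (12244 genes of at least 5 CPM). The labels state no pairing, so it was inferred from the data. The block had 18 pairs and 9 residual degrees of freedom.

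The members and lists were chosen with earlier results of these data known. Named genes were any of the 39, with library values for Gatb and for the 5 lowest and 5 highest called in each averaged knockout comparison, the 3 lowest and 3 highest called per medium comparison, and the 2 lowest and 2 highest called of each other list. Guf1 and Gfm2, Vars and Mars, and the neighbouring genes were named after their values were seen, and the chromosome measures were chosen after seeing the data. The promoter windows of 1 further gene with the ATF4 element are not reported here. The chromosome and segment measures used genes of at least 5 CPM and, as reference, libraries of the same medium without the same line and replicate.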

Additional observations from a re-analysis of the deposited data

Results flagged for a closer look

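The knockout effect, averaged over media, differed between lines by an edgeR test of the difference itself for the genes below, and 6 knockout and 6 wild-type libraries stand behind each effect. Bod1L minus Mll2 was -2.57 for Gatb (edgeR adjusted p = 2.54e-06), -1.82 for Ears2 (edgeR adjusted p = 0.000353), -1.46 for Iars2 (edgeR adjusted p = 0.000734), -1.24 for Dars (edgeR adjusted p = 0.002) and -1.22 for Nars2 (edgeR adjusted p = 0.012). Each kept its call without any 1 of the 24 libraries of the 2 lines.

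Setd1a minus Mll2 was -2.84 for Gatb (edgeR adjusted p = 2.70e-07), -2.26 for Ears2 (edgeR adjusted p = 7.71e-06), -2.02 for Iars2 (edgeR adjusted p = 5.36e-06) and -1.92 for Dars (edgeR adjusted p = 5.16e-06). It was -1.54 for Rars2 (0.0122), -1.41 for Pars2 (8.35e-05), -1.27 for Nars2 (0.00386), -0.90 for Tars2 (0.00331) and -0.85 for Sars2 (0.0199), with edgeR adjusted p in brackets. Sars2 lost its call (0.0528 to 0.0628) without Setd1a knockout 2i replicate 2, Setd1a wild-type 2i replicate 2, Setd1a wild-type EpiSC replicate 2, Mll2 wild-type FCS replicate 1 or Mll2 knockout FCS replicate 2. The 2 comparisons share the Mll2 libraries.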

How the results depend on the processing

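With 2 libraries per group, counts of genes called within a medium changed most. For the Bod1L knockout, 3 genes were called in each medium, against 5, 5 and 5 with DESeq2, 7, 6 and 8 with the replicate block and 0, 0 and 0 in the line's 12 libraries alone (2i, FCS, EpiSC). Over all 23501 genes the counts rose too, from 88, 45 and 103 to 198, 174 and 254 with DESeq2 and 658, 391 and 515 with the block. In the line alone 0, 2 and 0 of 21428 genes were called. For the Setd1a knockout, 8 in 2i became 13 with DESeq2, 17 with the block and 5 in the line alone, 5 in FCS became 10 with the block, and 6 in EpiSC became 10 with DESeq2 and 15 with the block. Over all 23501 genes, 397 in 2i became 844 with DESeq2 and 2910 with the block (264 of 21297 in the line alone). In FCS 179 became 919 with the block, and in EpiSC 361 became 760 with DESeq2 and 2801 with the block. The effect differing between media in the Setd1a line called 1 gene without the filter, against 119 of 39460 genes. Differences of effects called 1 gene with DESeq2 (Bod1L against Setd1a), 9 with DESeq2 and 9 with the block (Bod1L against Mll2) and 17 with the block (Setd1a against Mll2). In the same order, all-gene counts were 30, 501, 1308 and 3305 of 23501. The main fit called 1, 241 and 674 genes in these 3 comparisons. Wild-type comparisons called 7 with DESeq2 and 2 without the filter (FCS against 2i), 7 without the filter (EpiSC against FCS), and 5 with DESeq2 and 0 without the filter (Setd1a against Bod1L). Over all genes, DESeq2 called 7157 (FCS against 2i) and 3793 (Setd1a against Bod1L) of 23501, where the main fit called 6533 and 2892. Without the filter 6720, 9285 and 3861 of 39460 genes were called in the 3 comparisons, in the order given.

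With each library left out, the averaged Bod1L count was 6 to 8 and within media 1 to 3 (2i), 1 to 1 (FCS) and 1 to 2 (EpiSC). The Setd1a counts were 13 to 14, 4 to 6, 2 to 4 and 5 to 8, with 0 to 1 (without knockout 2i replicate 1) for effects differing between media. Setd1a against Mll2 gave 8 to 12, FCS against 2i 2 to 5, EpiSC against 2i 6 to 11, EpiSC against FCS 5 to 8, and the wild-type lines 0 to 3 (Setd1a against Bod1L) and 0 to 1 (Mll2 against Setd1a, without Setd1a EpiSC replicate 2). Lars2 in the Setd1a knockout in 2i reversed to -0.52 without knockout 2i replicate 2 and ranged up to 4.70.

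For single genes, DESeq2 kept all 94 calls and other size factors 90 of 94. Without the filter 70 of 94 were kept, and in the line alone 35 of 51. The block kept 64 of 65, losing Lars2 in 2i (2.08, adjusted p = 0.209), and apart from the additions given above it changed no other averaged call. The class score differences kept their sign in the Bod1L and Setd1a lines with medians over genes (-0.29 and -0.36), without Gars, Kars and the amidotransferase (-0.26 and -0.42) and without Lars2 (-0.36 and -0.53), the last chosen after seeing the data.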
